A study of Oryctolagus cuniculus with 3 samples.

Results

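The most abundant coding sequences of rabbit back skin were the 97 Ensembl protein identifiers selected on their deposited RPKM (reads scaled to coding length and to the reads assigned in the library), which had to reach at least 1000 in each of 3 libraries. They were 97 of 15558 identifiers with reads in any library, and of 11533 with at least 1 RPKM in each. The libraries came from 3 full-sibling Rex rabbits of 1 litter, aged 42 days, which is the time of the first moult. The animals were housed alike and differed in fur colour, which was black, white or chinchilla (a banded grey coat), with 1 animal and 1 library for each colour. No genotype at a coat colour locus and no treatment besides the anaesthetic for the biopsy is named in the labels. The study was made to find genes of fur colour. The libraries held between 14.8 M and 16.2 M assigned reads (M for mega).

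Whole skin joins the epidermis, the hair follicles, the dermis and the cells of vessels, muscle and fat. A few kinds of RNA are known to dominate such tissue: those for ribosomal proteins and translation factors, which every growing cell makes, those for keratins and keratin-associated proteins of epidermis and hair, and those for the fibrillar collagens of the dermis. Ribosomal proteins are mostly small, and the fibrillar collagen chains are large. Pigment cells are a small part of skin, and the first moult is a time when follicles pass from one hair cycle into the next. None of these families could be assigned to a member, since the deposited lists carry protein identifiers with no symbols and 0 of 38822 entries of the RefSeq gene table hold an Ensembl identifier. The members are therefore described by coding length, and skin markers could not be evaluated. In whole skin, fewer cells of a type and less RNA per cell cannot be told apart.

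With 1 library per colour the animals could not be compared by a test, and each difference describes these 3 libraries only. The rule used the RPKM of every library, and the levels, orders and differences that follow are descriptions of what it picked. Depth was not what limited these values. The member with fewest reads, of 135 bases, had read counts of 3616 (black), 5386 (white) and 5210 (chinchilla). The exact 95% counting interval of a ratio between libraries was at its widest for black over chinchilla, where its upper bound was 1.09 times its lower bound. Such intervals cover counting error only, and differences between animals or preparations are not in them, since each colour had 1 library. The reads also carry no molecular identifiers and may be copies of one another, in which case the intervals are too narrow.

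The members took a large share of every library, least in black skin. Of all assigned reads they held 20.45% in black (exact Clopper-Pearson 95% interval 20.43 to 20.47), 26.83% in white (26.80 to 26.85) and 25.89% in chinchilla skin (25.87 to 25.91). They made up between 0.656% (black) and 0.665% (white) of the identifiers with reads. Within the members the reads were concentrated again. The 10 members with most reads held 47.9% (black), 48.7% (white) and 45.8% (chinchilla) of the members' reads, and 50% was reached with 12, 11 and 14 members. The 1 member with most reads took 3.26% of the black library, where it was the one of 4149 bases, 2.78% of the white library, where it was the same, and 2.66% of the chinchilla library, where it was the one of 1707 bases.

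Membership left out part of the top of each single library. In black skin 115 identifiers reached 1000 RPKM, in white 127 and in chinchilla 122, and the members were 84.3%, 76.4% and 79.5% of these. The median member had RPKM values of 2109 (black), 2854 (white) and 2716 (chinchilla). Just inside the rule lay members of 522, 648 and 957 bases, with lowest values of 1011, 1011 and 1014 RPKM, each in black skin. Just outside lay sequences of 897, 498 and 504 bases, with lowest values of 995, 993 and 988 RPKM, each in chinchilla skin. The last of these had 2658 RPKM in black and 2210.3 RPKM in white skin. The rule thus also removed a sequence that was clearly above 1000 RPKM in 2 libraries and just below it in the third.

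**Figure D1:**
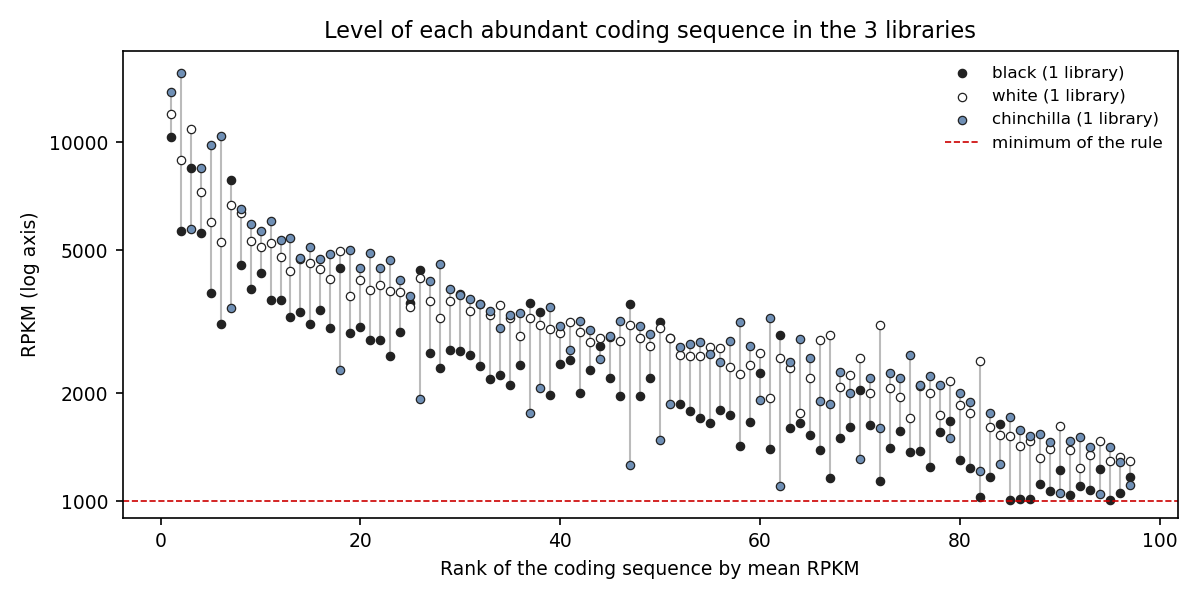
RPKM (log axis) of each of the 97 members in the black, white and chinchilla library, ordered by mean RPKM, with a grey line from the lowest to the highest library and a dashed line at the minimum of 1000. Black is the lowest point for 78 members, and the highest single point is 15600.1 RPKM in chinchilla skin.

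Short coding sequences made up most of the members by number, and long ones held much of the reads. The shortest member had 135 bases and the longest 4395, with a median of 537 bases and quartiles of 399 and 792. The median of all 11533 sequences with at least 1 RPKM in each library was 1317 bases. Up to 450 bases, 38 members were 39.2% of the set, where this class held 7.86% of all 11533. Above 450 and up to 900 bases there were 37 members (38.1% against 21.9%), above 900 and up to 1800 bases 16 members (16.5% against 38.1%) and over 1800 bases 6 members (6.19% against 32.2%). Members were 4.19% of the sequences in the shortest class and 0.162% of those in the longest. RPKM divides by coding length, so the rule itself asks a long sequence for more reads than a short one.

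Counted in reads, the shortest class held the smallest share. The 38 members of up to 450 bases held 3.38% of the black library, 4.41% of the white and 4.63% of the chinchilla library. The 37 members of the next class held 4.58%, 6.03% and 6.53%. The 16 members above 900 and up to 1800 bases held 6.84%, 8.73% and 9.27% in the same order. The 6 members over 1800 bases held 5.65%, 7.65% and 5.46%, and this was the class in which chinchilla skin had the lowest share. Members took over 50% of all reads of the shortest class, with 56.5% (black), 56.7% (white) and 58.5% (chinchilla), and 12.4%, 19.7% and 14.3% of those of the longest. When the 97 identifiers first by reads were taken in place of those first by RPKM, only 16 had up to 450 bases and 21 had over 1800 bases.

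**Figure D2:**
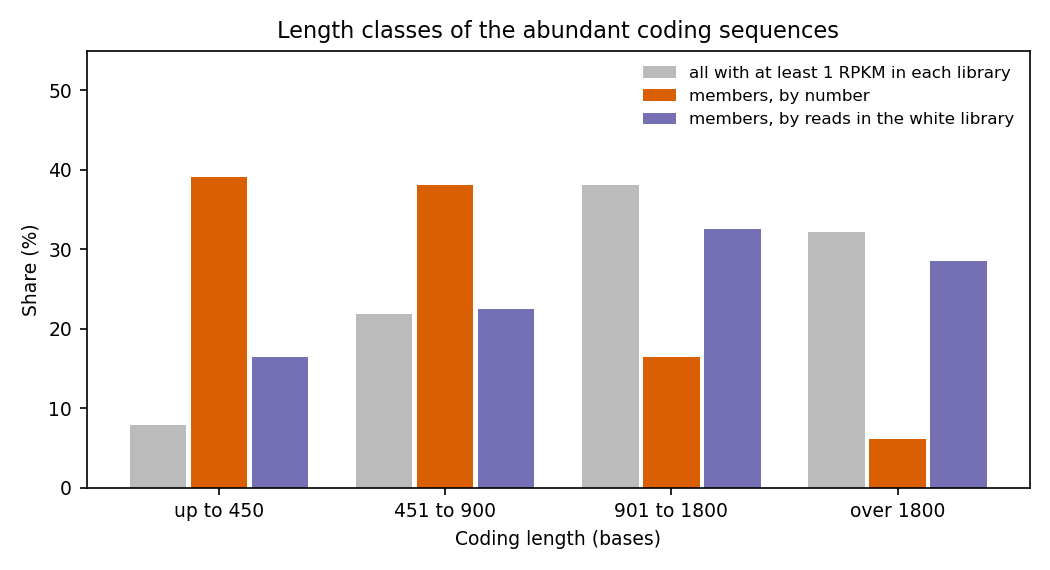
Share (%) of each class of coding length among all 11533 sequences with at least 1 RPKM in each library, among the 97 members by number, and among the members' reads in the white library. The class of up to 450 bases rises from 7.86% of all sequences to 39.2% of the members, while by reads the class above 900 and up to 1800 bases leads with 32.5%.

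The head of the ranking was shared by the 3 skins in part. By RPKM, 6 members stood among the first 10 in every library, and 13 members were needed to fill the first 10 of all 3. The 6 had 1389, 1707, 1350, 399, 345 and 360 bases. The member of 1389 bases was first in black and in white skin and second in chinchilla, with 233617, 247213 and 286937 reads in the order black, white, chinchilla. The member of 345 bases was sixth in each library, at RPKM values of 4564 (black), 6359 (white) and 6524 (chinchilla). The member of 360 bases held 3908, 5296 and 5926 RPKM in the same order and ranked 10, 8 and 8. For all 3 members black was lowest and chinchilla highest.

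Ranks moved most between black and chinchilla skin. The Spearman correlation of RPKM over the 97 members was 0.91 between black and white, 0.81 between chinchilla and white and 0.70 between black and chinchilla skin. These points share libraries and a common lower limit, and coding sequences are not replicates, so the coefficients are descriptions. Between black and chinchilla skin 30 members moved by more than 20 ranks, against 20 members between chinchilla and white and 9 between black and white. The largest move was 84 ranks. It belonged to the member of 297 bases, which was 16 (black), 40 (white) and 100 (chinchilla). In the other direction, the member of 744 bases was 84 (black), 79 (white) and 35 (chinchilla).

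Black skin had the lowest level of most members. It was lowest of the 3 libraries for 78 of the 97 (80.4%), where it was lowest for 41.8% of all 11533 sequences. Of the 79 sequences with a lowest RPKM of 500 to 1000, 35.4% had black lowest and chinchilla highest, and 30.4% had black lowest and white highest. Of the 950 with a lowest RPKM of 100 to 500, these shares were 32.5% and 30.6%. With median ratio scaling, scaling by the reads outside the members or the length trend removed, black was lowest for 72 to 80 members. Chinchilla was lowest for 18 members (28.7% of all sequences) and white for 1 (29.5%). The highest level was in chinchilla for 68 members (38% of all sequences), in white for 21 (22.3%) and in black for 8 (39.7%). The single member with its lowest level in white skin had 450 bases and varied least of all, from 3478 RPKM in white over 3563 RPKM in black to 3726 RPKM in chinchilla skin, a 1.07-fold range. Over all members the highest library was a median of 1.54-fold above the lowest, and at most 3.34-fold.

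The most common order was black below white below chinchilla, called ascending here. The sequence black, white, chinchilla is only the order in which the libraries were deposited, and no scale of colour is meant by it. 67 members (69.1%) were ascending, and 3097 of the 11533 sequences (26.9%) were. Up to 450 bases, 28 of 38 members were ascending, against 35.0% of all sequences of that class. Above 450 and up to 900 bases 29 of 37 were, against 36.3%. Above 900 and up to 1800 bases 9 of 16 were, against 30.0%, and over 1800 bases 1 of 6, against 14.8%. The reverse, descending order was seen for 8 members (8.25%), against 21.4% of all sequences. A further 11 members (11.3%) had black lowest and white highest, against 15% of all sequences, and 10 (10.3%) had chinchilla lowest and white highest, against 7.29%. White lowest and chinchilla highest was seen for 1 member (1.03%), against 11.2%, and white lowest and black highest for 0, against 18.3%. The ascending members held 11% of the black library, 15% of the white and 18.8% of the chinchilla library. The descending ones held 4.59%, 4% and 2.20%.

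**Figure D3:**
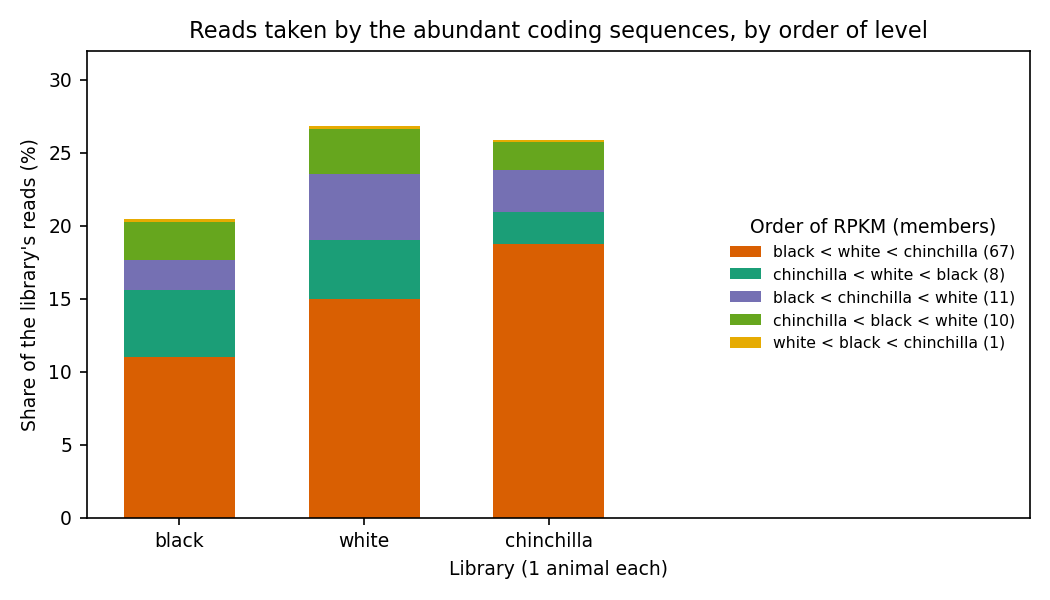
Share (%) of each library's assigned reads taken by the 97 members, stacked by the order of their RPKM over the libraries, with the number of members of each order in brackets. The ascending members grow from 11% in black to 18.8% in chinchilla skin, and the white bar is the tallest, at 26.8%.

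Most ascending members made a clear first step and a small second one. From black to white the step was a median of 1.38-fold and ran from 1.06-fold to 1.69-fold, and 60 of the 67 reached 1.2-fold. From white to chinchilla the median was 1.11-fold, 14 reached 1.2-fold, and 29 members were less than 1.1-fold apart. The counting interval of the second step reached 1 for 4 members, and that of the first step for 0. With both intervals beyond 1, 63 members (64.9%) were ascending and 8 (8.25%) descending, against 9.33% and 7.67% of all sequences. The interval narrows as reads increase, and many of the 11533 sequences had far fewer reads than the members. Nothing is therefore read from this contrast. With both steps of at least 1.2-fold, 11 members were ascending and 0 descending, against 5.92% and 5.13%.

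The differences of many members lay close together in black minus white. On the scale of log2(RPKM + 1), the median member was -0.44 in black minus white, 0.11 in chinchilla minus white and -0.52 in black minus chinchilla, where the medians over all 11533 were 0.01, 0.04 and -0.04. The middle 50% of the members spanned 0.24 in black minus white, against 0.62 for all sequences. It spanned 0.42 for those with a lowest RPKM of 500 to 1000 and 0.40 for those of 100 to 500. For the members, the gap was thus smaller against sequences of nearer abundance. In chinchilla minus white the middle 50% of the members spanned 0.35. That was about as much as the 0.36 for all sequences and more than the 0.32 for those with a lowest RPKM of 500 to 1000. In a window of 0.25 on either side of the members' 2 medians against white, which was chosen after the values were seen, lay 59 members with lengths of 156 to 1389 bases, and 56 of these were ascending. The 59 were 60.8% of the members, and 16.8% of all 11533 sequences lay in the same window, which was centred on the members. The 59 held 8.54% of the black library, 11.3% of the white and 12.5% of the chinchilla library. Among them was the member of 1389 bases, together with those of 345 and 360 bases described above.

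Coding length moved with the differences that involve black in all sequences. In chinchilla minus white, the medians over all sequences were only -0.01 up to 450 bases and 0.05 over 1800 bases. Among the 11533, those of up to 450 bases had a median black minus white difference of -0.36 and those over 1800 bases one of 0.27. The members of up to 450 bases stood at -0.49, and those above 450 and up to 900 bases at -0.43 where all sequences of that class were at -0.21. In the class above 900 and up to 1800 bases the values were -0.33 for the members and -0.03 for all, and the 6 members over 1800 bases were at -0.96. With the trend on length removed, the median member was at -0.19 in black minus white, 0.08 in chinchilla minus white and -0.27 in black minus chinchilla, and 60 members were ascending. The black to white step of the median member was thus smaller without the trend, while its direction stayed. Scaling each library by the reads outside the members shifted all black minus white differences by -0.11 and the members' median to -0.56, and left 64 ascending and 5 descending. The descending members of 264, 186 and 1947 bases then had white above black. With the length trend removed, the members of 4149 and 1947 bases left the descending order, which then held 9 members.

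**Figure D4:**
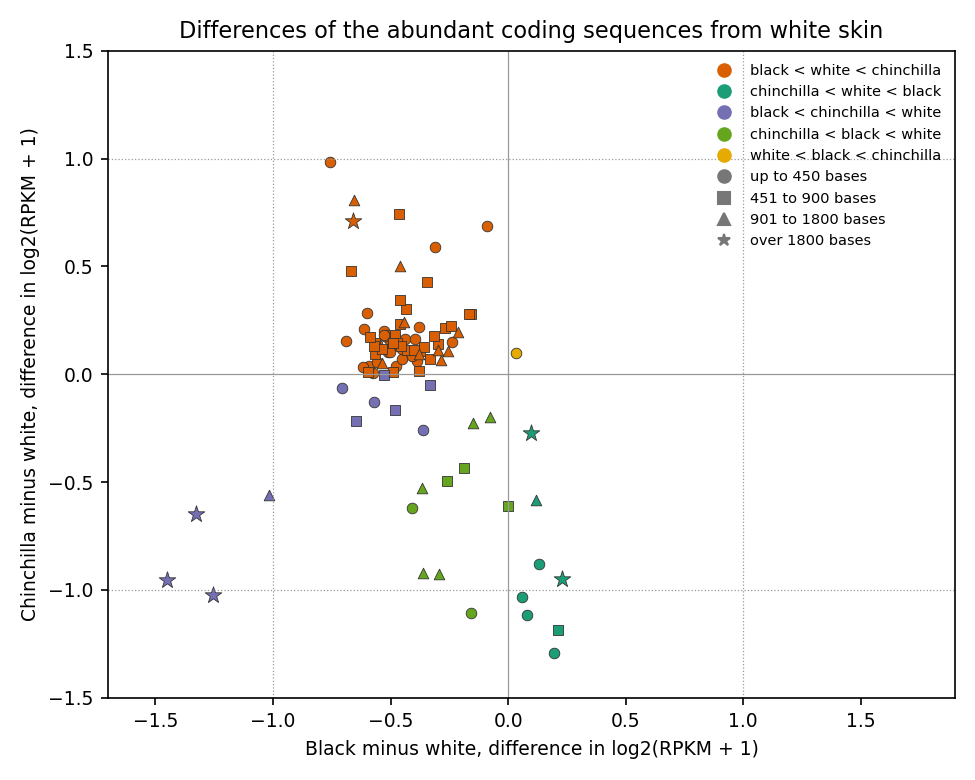
Difference in log2(RPKM + 1) of black minus white (horizontal) and chinchilla minus white (vertical) for each of the 97 members, coloured by the order of the libraries and shaped by coding length, with dotted lines at 2-fold. Most ascending members lie near -0.44 and 0.11, 3 members over 1800 bases lie at the far left, and a further group lies low, near or right of 0 in black minus white.

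At least 2-fold, a difference of 1 on this scale, separated 16 members in some pair, and 81 members stayed below it in every pair. Black minus white gave 0 members higher and 4 lower in black, where 5.64% and 1.67% of all compared sequences passed. Chinchilla minus white gave 0 higher and 6 lower in chinchilla, against 1.78% and 1.06%. Black minus chinchilla gave 6 higher and 5 lower in black, against 7.21% and 4.23%. Nothing is read from these shares, since the rule removed sequences that were low in any library. At 1.5-fold, black was higher than white in 0 members and lower in 17 (16.1% and 7.54% of all), chinchilla was higher than white in 6 and lower in 14 (7.78% and 4.12%), and black was higher than chinchilla in 10 and lower in 42 (17.2% and 14.5%).

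The 5 ascending members with the largest chinchilla to black ratio were also the 5 members at least 2-fold lower in black than in chinchilla. ENSOCUP00000009388, of 300 bases, had read counts of 15203 (black), 23463 (white) and 46903 (chinchilla). Its RPKM was 3.34-fold above black in chinchilla skin (95% counting interval 3.28 to 3.40), the widest range of any member, and its rank went from 22 over 9 to 3. ENSOCUP00000010085, of 1707 bases, had 156642, 225404 and 399423 reads and was 2.76-fold above black in chinchilla skin (2.74 to 2.78). In both, the white library lay between the others: the member of 300 bases was 1.69-fold higher in white than in black and 1.98-fold higher in chinchilla than in white, and that of 1707 bases 1.58-fold and 1.75-fold.

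The other 3, in the order given here, ranked 5, 61 and 58 among the 97 members by mean RPKM. The member of 1890 bases had 116817, 168706 and 279467 reads in black, white and chinchilla skin and was 2.59-fold above black in chinchilla skin (2.57 to 2.61). The member of 744 bases had RPKM values of 1403 (black), 1939 (white) and 3246 (chinchilla), a 2.31-fold ratio (2.27 to 2.36). The member of 618 bases had 1425, 2264 and 3151 RPKM, a 2.21-fold ratio (2.17 to 2.26). In all 3 the white library lay clearly between the others, with steps from black to white of 1.58-fold, 1.38-fold and 1.59-fold. A member of 414 bases was ascending with a nearly flat first step, with RPKM values of 1654 (black), 1761 (white) and 2840.2 (chinchilla).

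The 8 descending members were close in black and white skin and low in chinchilla. Black minus white ran from 0.06 to 0.23 (log2) among them, and chinchilla minus white from -1.29 to -0.27. ENSOCUP00000015677, of 297 bases, had read counts of 17084 (black), 13634 (white) and 5629 (chinchilla), and black was 2.80-fold above chinchilla (2.72 to 2.89). ENSOCUP00000010357, 1 of 2 members of 495 bases, had 23369, 18418 and 8193 reads, and black was 2.63-fold above chinchilla (2.57 to 2.70). For both, white was more than 2-fold above chinchilla as well and within 1.2-fold of black.

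The descending member of 264 bases held RPKM values of 4418 (black), 4179.8 (white) and 1929.6 (chinchilla), so black was 2.29-fold above chinchilla (2.23 to 2.35). The member of 4149 bases held 7865, 6699.5 and 3465 RPKM. It was the most read member in black and in white skin, though not in chinchilla, with read counts of 529978 (black), 412158 (white) and 215640 (chinchilla), and black was 2.27-fold above chinchilla (2.26 to 2.28). For the member of 186 bases, at 3165, 3034 and 1481 RPKM, the ratio was 2.14 (2.06 to 2.22). The member of 339 bases, at 3562, 3248 and 1764 RPKM, had a ratio of 2.02 with an interval from 1.97 to 2.07 that crossed 2-fold. The remaining 2 differed less: the member of 1377 bases was 1.63-fold and that of 1947 bases 1.29-fold higher in black than in chinchilla.

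A further 10 members had chinchilla lowest and white highest. The most abundant was the member of 1350 bases, with read counts of 185819 (black), 217798 (white) and 116329 (chinchilla), second by RPKM in black and in white and ninth in chinchilla. White was 1.89-fold above chinchilla (1.88 to 1.91). A member of 399 bases had RPKM values of 4476 (black), 4989.8 (white) and 2319.9 (chinchilla), and was the single one of the 10 that was at least 2-fold lower in chinchilla than in white. The other member of 399 bases, with 5602, 7274 and 8459 RPKM in black, white and chinchilla skin, was ascending. In all, 13 lengths were held by more than 1 member, 27 members together, and at 8 of these lengths the members had the same order, at 5 they did not. The remaining 8 of the 10 had 264 to 1221 bases.

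Among the 6 members over 1800 bases, 1 was ascending, 2 were descending and the other 3 were highest in white skin. Of the 4 longest, 3 had black lowest, chinchilla between and white highest, and the fourth was the descending member of 4149 bases. The member of 4395 bases had read counts of 82845 (black), 189905 (white) and 122738 (chinchilla), and white was 2.51-fold above black (2.49 to 2.53) and 1.57-fold above chinchilla (1.55 to 1.58). The member of 4095 bases had 75576, 188706 and 98535 reads, with white 2.73-fold above black (2.71 to 2.76) and 1.94-fold above chinchilla (1.92 to 1.95). The member of 3585 bases had 60039, 130929 and 65239 reads, with white 2.39-fold above black (2.37 to 2.41) and 2.03-fold above chinchilla (2.01 to 2.05). These 3 differed from black to white against the trend of all sequences, whose longest class was higher in black.

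The fourth member at least 2-fold lower in black than in white had 918 bases. It held RPKM values of 1389.8 (black), 2813 (white) and 1909.8 (chinchilla), and its ratio of white to black was 2.02 with an interval of 1.99 to 2.06 that crossed 2-fold. The other 7 members with black lowest and white highest had 135 to 729 bases. They were less than 1.2-fold apart between white and chinchilla skin. The smallest of these steps was that of the member of 519 bases, which had 3773 RPKM in white against 3759.6 RPKM in chinchilla skin, a ratio of chinchilla over white of 0.997 with an interval from 0.980 to 1.01.

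**Figure D5:**
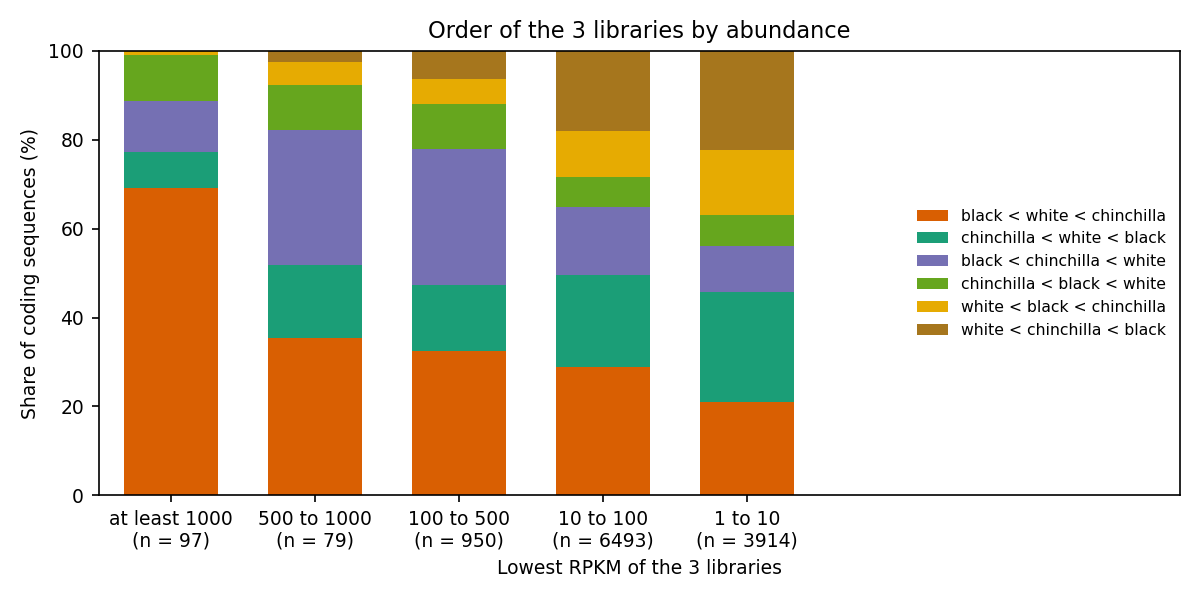
Share (%) of coding sequences with each order of the 3 libraries, in classes of the lowest RPKM of the 3, with the number of sequences under each bar. The ascending order takes 69.1% of the sequences of at least 1000 RPKM, 35.4% of those of 500 to 1000 and 21% of those of 1 to 10.

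Down to 100 RPKM, black was lowest for most of the next sequences in abundance too, but the mix of orders was not the same. Among 79 with a lowest RPKM of 500 to 1000, 28 were ascending (35.4%) and 24 had black lowest and white highest (30.4%). Among 950 of 100 to 500 RPKM the shares were 32.5% and 30.6%, close to those of the 79. Among 3914 of 1 to 10 RPKM, 21% were ascending and 24.7% descending. The median difference of black minus white went from -0.44 in the members over -0.31 in the 79 and -0.20 in the 950 to 0.17 in the 3914. In chinchilla minus white it was 0.11 in the members and -0.05 and -0.02 in the 79 and the 950. The 79 had a median of 582 bases, and 24 of them had up to 450 bases. These are counts of sequences, which are not replicates, and the differences between the classes were not tested.

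Reads covered nearly the whole of most members in each library. The median covered share of the coding length was 99.7% in every library, and 71 of 97 members were covered to at least 99% in all 3. Below 90% in any library were 6 members, each of them in all 3, with lengths of 495 (the one that was not descending), 468, 624, 957, 822 and 561 bases. The member of 468 bases had reads on 82.0% (black), 81.6% (white) and 81.8% (chinchilla) of its length, with 84, 86 and 85 bases uncovered. The member of 957 bases had 83.4%, 75.7% and 80.7%, the largest range of any member, at 7.74 percentage points. For 90 members the covered share stayed within 1 point over the libraries. Among the 950 sequences of 100 to 500 RPKM, 74 were below 90% in some library (7.79%, against 6.19% of the members). What keeps unique reads off these parts was not tested, and since only uniquely assigned reads were deposited, members with a near-identical copy elsewhere can be undercounted.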

How the data were processed

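The authors deposited, per the file headers, uniquely assigned read counts, a length, a covered share in percent and an RPKM value for each Ensembl protein identifier of each library. RPKM was recomputed from the deposited counts, and the largest relative difference was 1.6e-14, so its total is the reads assigned to coding sequences. Every length is a multiple of 3, so these are coding lengths. Aligner, counting program, use of strand, genome build and annotation are, all of them, not given in the sources used here.

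The lists were joined on the identifier, and identifiers absent from one list counted as 0 there. Differences were taken as log2(RPKM + 1), pairs needing 1 RPKM in the higher library and orders 1 RPKM in each, and ratios of RPKM carry exact conditional binomial 95% intervals. The code for 2-fold counts, intervals and the length trend was checked on simulated libraries, and no test was made on the measured differences. The length trend was removed with lowess on log2 length (fraction 0.3), fitted where the mean reached 5 RPKM. The named members were the 10 highest by mean, the 5 ordered ones with the largest and smallest chinchilla to black ratio, those 2-fold apart, nearest to the threshold, covered under 90% or of equal length; where that gave more, a part is summarised, and the members of 414 and 519 bases were added after their values were seen. No symbols were matched, so the gene lists planned by symbol were not evaluated, and no sequences are shown. The members and lists were chosen with earlier results of these data known. Computations ran under Python 3.11.15 with pandas 2.3.3, statsmodels 0.14.6, matplotlib 3.10.9, SciPy 1.17.1 and NumPy 2.4.6.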

Additional observations from a re-analysis of the deposited data

How the results depend on the processing

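Of 69 alternative values, 50 stayed within 1.5 times of the main count or within the counting interval of the share, and 19 did not. With a minimum of 500 RPKM there were 176 members and with 2000 there were 43. The 97 identifiers first by reads held 24.4% of the black, 29.7% of the white and 28.5% of the chinchilla library, with 16, 31 and 21 of them in the classes up to 450, above 900 and up to 1800, and over 1800 bases. At 1.5-fold, 17 members were lower in black than in white, 6 higher and 14 lower in chinchilla than in white, and 10 higher and 42 lower in black than in chinchilla. Membership by a mean of at least 1000 RPKM gave 120 members. Of these, 1 was at least 2-fold higher and 11 were lower in chinchilla than in white, against 1.78% and 1.06% of all compared sequences. In black, 14 of the 120 were at least 2-fold higher than in chinchilla, against 7.21%. Nothing is read from these counts, since a sequence can reach the mean through the libraries where it is high. With both steps of at least 1.2-fold, 11 members were ascending and 0 descending, and 5 were descending when scaled by the reads outside the members. Pseudocounts of 0.1 and 5 changed no 2-fold count. No paired analysis was possible because each colour had 1 library and the labels carry no replicate numbers, and no library could be left out.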

Other observations

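A further 46 coding sequences reached 1000 RPKM in 1 or 2 libraries and missed it in another. The library in which they were lowest was black for 26, chinchilla for 17 and white for 3. Of all 11533 sequences, black was lowest for 41.8%, chinchilla for 28.7% and white for 29.5%. Those with at least 1000 RPKM in white and chinchilla but not in black numbered 14, with a median of 478.5 bases, and those with at least 1000 in black and white but not in chinchilla numbered 12, with a median of 1087.5 bases. Of the 46, 8 were below 500 RPKM in their lowest library, 5 of them in chinchilla and 3 in black. One of 1470 bases had RPKM values of 1275 (black), 1095 (white) and 279.6 (chinchilla), and one of 444 bases had RPKM values of 156 (black), 719 (white) and 1157 (chinchilla). The longest, of 8460 bases, had RPKM values of 1088 (black), 662 (white) and 697 (chinchilla). These sequences were picked for their levels, and no test was made on them.

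The deposited covered shares held a regular gap. In 54 of the 97 members (55.7%), the covered share left exactly 1 base without reads in every library, although each had at least 3616 reads in every library, and 0 members were covered to 100% in all 3 libraries. The same gap was found in 36 of 79 sequences with a lowest RPKM of 500 to 1000 (45.6%) and in 165 of 950 of 100 to 500 RPKM (17.4%), and 0 of these were covered fully in all 3 libraries. Its cause was not tested.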
